A study of Mus musculus with 6 samples.

Results

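The genes of the transverse tubules (T-tubules) and dyads of cardiomyocytes (CMs) examined here are Bin1, Cav3, Dysf and Mtm1 for the tubule membrane, Jph2 for the junction, Cacna1c and Cacnb2 for the L-type calcium channel, and Ryr2 and Trdn for calcium release. These 9 genes were chosen by name, from their known place in these structures, out of 23337 genes in the count table, and all 9 passed the filter on low counts. The study asked whether raising serum response factor (SRF), a transcription factor of muscle and cytoskeletal genes, promotes the maturation of neonatal CMs. Wild-type pups received an adeno-associated virus at postnatal day 1 (P1), at 5e8 vector genomes per gram of body weight, and transduced CMs, recognised by GFP, were isolated by flow sorting for RNA-seq at P14. The SRF-OE group received AAV9-cTNT-SRF-2A-GFP and the GFP group received AAV9-cTNT-GFP, so that both groups carried a virus, GFP and the cTNT (cardiac troponin T) promoter, which drives the transgene in CMs. The low dose transduced a mosaic of CMs, and the sorted cells of either group therefore came from hearts in which other CMs were not transduced.

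Counts were used for 5 of the 6 libraries in the labels, namely replicates 2 and 3 of SRF-OE and all 3 of GFP, with totals of 14137433 to 23159631 counts. The table's column for SRF-OE replicate 1 holds gene lengths, and whether the other headings belong to the columns beneath them could not be settled from the labels. Srf itself, which checks the labels, was at 360 and 748 CPM (counts scaled to a common library size, with TMM factors) in the SRF-OE libraries and at 67.2 and 85.1 CPM in GFP replicates 2 and 3, but at 338 CPM in the library labelled GFP1, which goes against its label. Each result below is therefore given for all 5 libraries as labelled and for the 4 libraries without the library labelled GFP1. The female transcript Xist had 2545 and 1936 counts in replicate 2 of SRF-OE and GFP and at most 17 in the other 3 libraries, so the replicate 2 libraries share a sex. The series describes the replicates as biological without saying whether each is a separate animal, and p-values measure only the spread between these libraries.

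T-tubules are invaginations of the plasma membrane that carry the action potential into the CM interior. At dyads, the tubule membrane lies against the junctional sarcoplasmic reticulum (SR), so that calcium entering through L-type channels opens ryanodine receptors and releases the stored calcium that starts contraction. In mouse CMs, tubules and dyads are assembled in the weeks after birth.

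In the 5 libraries, 0 of the 9 genes passed an adjusted p of 0.05 (edgeR), and neither did any of the 13754 genes tested (0.0%). At an unadjusted p under 0.05, 2 of the 9 were lower in SRF-OE, Jph2 and Mtm1, and 0 were higher, where 7.59% of all genes were lower and 6.35% higher. Without the library labelled GFP1, Bin1 rose and was the only gene of the 9 past an adjusted p of 0.05, where 2.95% of 13397 genes passed, with 1.98% of all genes upward and 0.97% downward. In those 4 libraries at an unadjusted p under 0.05, 1 of the 9 was higher and 5 were lower, where the shares over all genes were 14.4% and 14.0%. The median log2 fold change of the 9 genes was -0.28 in 5 libraries and -0.37 in 4, beside 0.03 and 0.04 for all genes tested. Jph2, Mtm1, Cacna1c, Cacnb2 and Ryr2 were lower in both SRF-OE libraries than in every GFP library, with and without the library labelled GFP1. Over all genes, 17.3% showed such a downward separation of the groups in 5 libraries and 30.2% in 4, and 16.1% and 30.8% showed an upward separation.

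**Figure D1:**
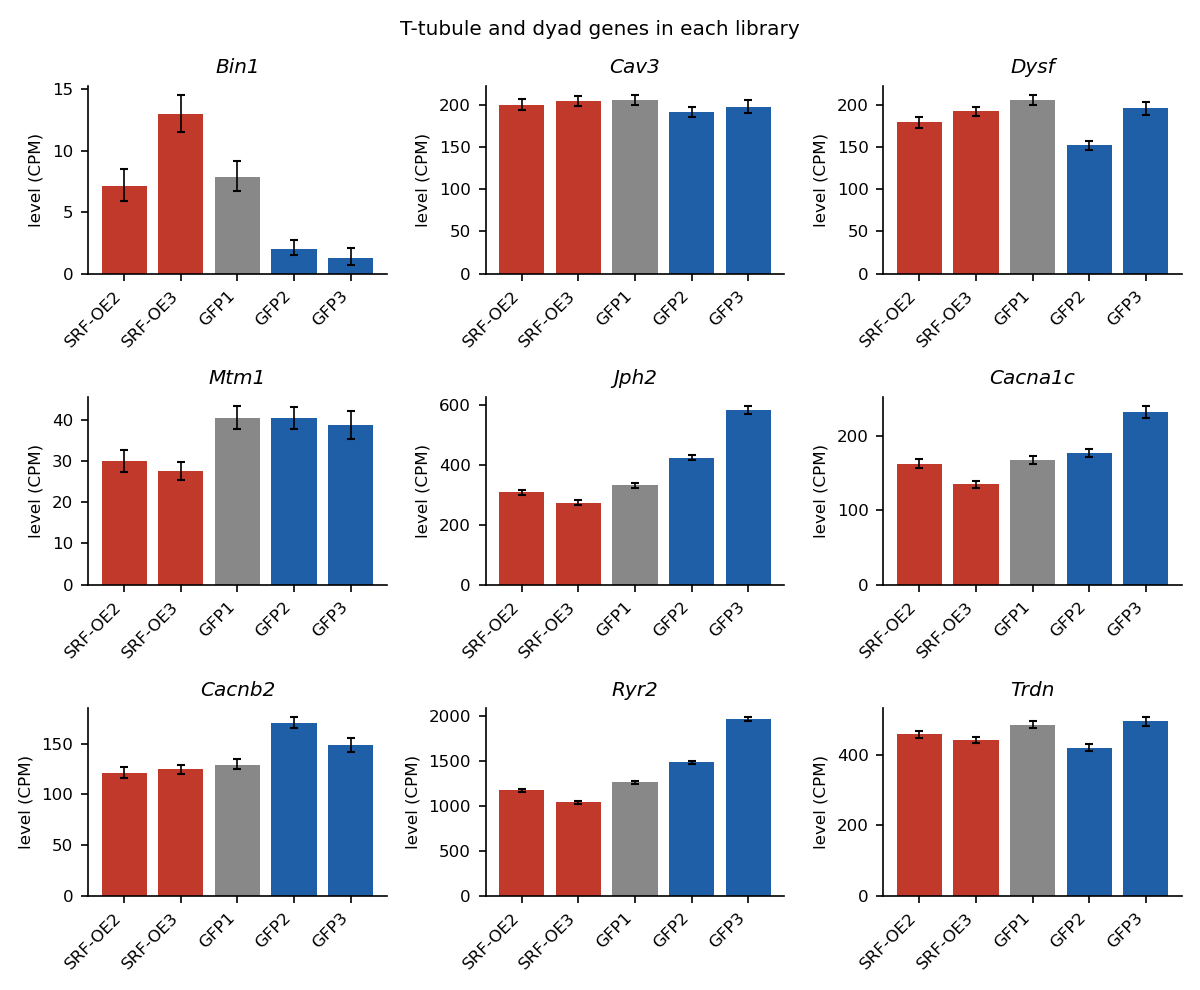
Level of each of the 9 genes in CPM (vertical axes, from 0, a scale of its own for each gene) in the SRF-OE libraries (red), the library labelled GFP1 (grey) and GFP replicates 2 and 3 (blue), with 95% Poisson intervals that cover counting error only. Bin1 stood at 7.11 and 13.0 CPM in SRF-OE against 2.02 and 1.26 CPM in GFP replicates 2 and 3, whereas Cav3 differed by at most 1.07-fold between any 2 libraries.

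The sequence before the start sites of Jph2 and Ryr2, the dyad genes with the largest downward differences, and of Cav3, the steadiest of the 9, is shown because SRF binds DNA at the CArG box. The 250 bases upstream of the start are written 5′ to 3′ on the strand of the gene (RefSeq, GRCm38.p6), with GGGCGG matches in capitals. They lie at chr2:163397994-163398243 on the minus strand for Jph2, chr13:12106946-12107195 on the minus strand for Ryr2 and chr6:112459255-112459504 on the plus strand for Cav3.
Jph2: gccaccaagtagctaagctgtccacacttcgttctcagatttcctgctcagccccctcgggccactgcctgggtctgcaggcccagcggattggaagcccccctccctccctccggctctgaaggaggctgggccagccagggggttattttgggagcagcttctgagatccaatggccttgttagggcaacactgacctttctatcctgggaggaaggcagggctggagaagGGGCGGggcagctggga
Ryr2: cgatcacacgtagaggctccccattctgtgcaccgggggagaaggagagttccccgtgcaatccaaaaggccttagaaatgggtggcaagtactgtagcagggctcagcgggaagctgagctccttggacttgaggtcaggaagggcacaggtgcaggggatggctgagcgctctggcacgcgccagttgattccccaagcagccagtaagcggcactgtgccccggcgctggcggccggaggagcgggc
Cav3: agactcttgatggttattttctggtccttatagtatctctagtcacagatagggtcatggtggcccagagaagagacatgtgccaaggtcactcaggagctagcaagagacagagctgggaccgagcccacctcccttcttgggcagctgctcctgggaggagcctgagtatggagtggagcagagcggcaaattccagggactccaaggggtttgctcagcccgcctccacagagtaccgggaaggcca
Promoter windows of 300 bases, which also hold the 50 bases after the start, were found for 7 of the 9 genes, with 14 windows among them. Bin1 and Trdn had no window, so the motif counts do not cover these genes. Motifs were searched on both strands with overlaps allowed. The CArG box was sought as the exact pattern CCWWWWWWGG, with W for A or T, and near matches were not counted. An example of a near match is ccttgttagg in the Jph2 sequence above. The exact CArG box was in 0 of the 14 windows and in 1.63% of 32851 windows of all genes. The MEF2 motif was in 0 windows, against 3.19% of all windows, and the TATA-like TATAAA was likewise in 0 windows, against 13.6%. The TEAD motif CATTCC was in 1 window, that of Cav3 (14.7% of all windows), on the transcribed side of the start. The SP1-like GGGCGG was in 9 of the 14 windows, against 35.7% of all windows. By gene it was in 6 of the 7, all but Cav3, and no share by gene was computed for all genes. Windows of Jph2 and of Mtm1 overlap, so that the same match is counted in more than 1 window. A match describes letters only, and its absence covers this window alone.

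Bin1 encodes amphiphysin 2, a BAR domain protein that bends membrane and folds the T-tubule wall. Bin1 had 7.11 and 13.0 CPM in SRF-OE, 7.84 CPM in the library labelled GFP1, and 2.02 and 1.26 CPM in GFP replicates 2 and 3. Both SRF-OE libraries lay above GFP replicates 2 and 3, and the library labelled GFP1 lay between the SRF-OE libraries, so the groups as labelled overlapped. These levels rest on 123, 297, 165, 44 and 16 counts, and the 95% Poisson interval of the lowest, in GFP replicate 3, was 0.722 to 2.05 CPM. The log2 fold change was 1.42 ± 0.72 (SE, n = 2 and 3, edgeR adjusted p = 0.40) in 5 libraries. Without the library labelled GFP1 it was 2.59 ± 0.42 (SE, n = 2 and 2, adjusted p = 0.048), or 6.01-fold, and Bin1 also passed with the size factors of DESeq2 (2.46% of all genes called higher), a replicate block (4.08%), DESeq2 itself (6.29%), no filter on low counts (7.75%) and scaling to CM markers. Leaving out SRF-OE replicate 3 lowered the 5-library value to 0.91. An annotated RNA gene on the opposite strand, A830052D11Rik, overlaps the exons of Bin1, and it had at most 1 count in any library.

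Cav3 encodes caveolin-3, the muscle caveolin, which shapes caveolae and early tubule membrane. Cav3 (chr6:112459505-112472872, GRCm38, plus strand) was at 200.3 and 205 CPM in SRF-OE and at 206, 192 and 198 CPM in GFP replicates 1 to 3. The levels overlapped in 5 libraries and lay within 1.07-fold of each other, the narrowest range of the 9 genes. Its log2 fold change was 0.03 ± 0.11 (SE, edgeR adjusted p = 0.91) in 5 libraries and 0.06 ± 0.11 (adjusted p = 0.75) in 4.

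Dysf encodes dysferlin, a calcium-sensing protein of membrane repair that is found along T-tubules in muscle. Dysf (chr6:84008590-84211060, plus strand) was at 180.0 and 193 CPM in SRF-OE and at 206, 153 and 197 CPM in GFP. The SRF-OE libraries lay inside the range of the GFP libraries, of which replicate 2 was the lowest of all. Dysf had a log2 fold change of 0.01 ± 0.16 (edgeR adjusted p = 0.98) in 5 libraries and 0.10 ± 0.15 (adjusted p = 0.70) in 4, and the sign turned when GFP replicate 2 was left out, at -0.11.

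Mtm1 encodes myotubularin, a phosphoinositide phosphatase whose loss disorganises the triads of skeletal muscle. Mtm1 (chrX:71210767-71315691, plus strand) was at 30.0 and 27.5 CPM in SRF-OE and at 40.5, 40.3 and 38.6 CPM in GFP. Every SRF-OE library was lower than every GFP library, and here the library labelled GFP1 lay with the other GFP libraries. The SRF-OE mean was 28.7 ± 1.70 CPM (SD, n = 2) and the GFP mean was 39.8 ± 1.06 CPM (SD, n = 3). For Mtm1 the log2 fold change was -0.47 ± 0.12 (SE) in 5 libraries and -0.45 ± 0.13 in 4, with adjusted p of 0.35 and 0.093 (edgeR), so the difference did not pass the threshold. Mtm1 is X-linked, and the log2 ratio was -0.43 between the replicate 2 libraries, which hold Xist, and -0.49 and -0.56 for SRF-OE replicate 3 over GFP replicates 3 and 1, which do not.

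Jph2 encodes junctophilin-2, which tethers the T-tubule to the SR and holds the dyad cleft at its width. Jph2 (chr2:163336242-163397993, minus strand) was at 308 and 274 CPM in SRF-OE and at 332, 424 and 584 CPM in GFP. Both SRF-OE libraries were the lowest of the 5, the library labelled GFP1 came next, and GFP replicate 3 was highest. The log2 fold change was -0.62 ± 0.25 (SE, edgeR adjusted p = 0.36) in 5 libraries and -0.79 ± 0.19 (adjusted p = 0.068) in 4, or 0.580-fold. In those 4 libraries Jph2 was called lower by DESeq2 (adjusted p = 0.0023) and by edgeR without the filter on low counts (adjusted p = 3.32e-05), which called 6.14% and 6.09% of all genes lower, but not by the other 3 fits. The 5-library value was -0.38 without GFP replicate 3, the library in which Jph2 was highest. The log2 ratio was -0.46 between the replicate 2 libraries and -1.09 between the replicate 3 libraries.

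Cacna1c encodes Cav1.2, the pore of the cardiac L-type calcium channel, and lies at chr6:118587240-119196418 on the minus strand. Cacna1c was at 162 and 135 CPM in SRF-OE and at 168, 177 and 231 CPM in GFP. The SRF-OE libraries were the 2 lowest, by a narrow margin from the library labelled GFP1. Its log2 fold change was -0.37 ± 0.18 (SE, edgeR adjusted p = 0.40) in 5 libraries and -0.45 ± 0.18 (adjusted p = 0.16) in 4. In the 4 libraries, edgeR without the filter on low counts called Cacna1c lower (adjusted p = 0.036), as it did 6.09% of all genes. Without GFP replicate 3 the 5-library value was -0.21.

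Cacnb2 encodes the main cardiac β subunit, which brings the pore to the surface membrane and shapes its gating. Cacnb2 (chr2:14603088-14987908, plus strand) was at 121 and 125 CPM in SRF-OE and at 129, 171 and 148 CPM in GFP. Both SRF-OE libraries were again lowest, and the log2 ratio of SRF-OE replicate 3 to the library labelled GFP1 was -0.05. This gave a log2 fold change of -0.28 ± 0.15 (SE, edgeR adjusted p = 0.41) in 5 libraries and -0.37 ± 0.12 (adjusted p = 0.12) in 4, and it was -0.18 when GFP replicate 2 was left out.

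Ryr2 encodes the cardiac ryanodine receptor, the SR calcium release channel, and lies at chr13:11553102-12106945 on the minus strand. Ryr2 was at 1175 and 1039 CPM in SRF-OE and at 1263, 1487 and 1968 CPM in GFP. The order of the libraries was that of Jph2 and Cacna1c, with both SRF-OE libraries lowest, the library labelled GFP1 next and GFP replicate 3 highest. The log2 fold change was -0.51 ± 0.23 (SE, edgeR adjusted p = 0.38) in 5 libraries and -0.64 ± 0.20 (adjusted p = 0.10) in 4, or 0.643-fold. As for Jph2, DESeq2 (adjusted p = 0.013) and edgeR without a filter (adjusted p = 0.0018) called Ryr2 lower in the 4 libraries. Without GFP replicate 3, where Ryr2 was highest, the 5-library value was -0.31.

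Trdn encodes triadin, which anchors calsequestrin to the ryanodine receptor in the junctional SR, and lies at chr10:33080554-33476709 on the plus strand. Trdn was at 460 and 444 CPM in SRF-OE and at 488, 422 and 497 CPM in GFP. The SRF-OE libraries lay within the GFP range, with GFP replicate 2 lowest. Trdn had a log2 fold change of -0.05 ± 0.14 (SE, edgeR adjusted p = 0.87) in 5 libraries and -0.02 ± 0.14 (adjusted p = 0.94) in 4. The genes of the release complex thus gave unlike values, -0.51 for Ryr2 and -0.05 for Trdn, and the difference between them was not tested.

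**Figure D2:**
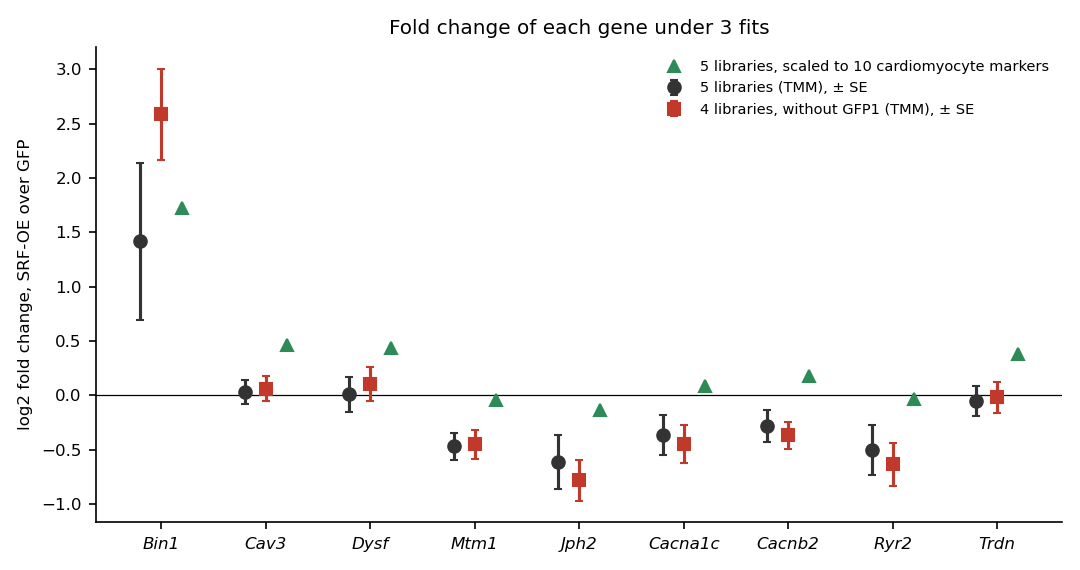
Log2 fold change of SRF-OE over GFP (vertical axis) for each gene, from edgeR on 5 libraries (circles), on the 4 libraries without the library labelled GFP1 (squares), both with SE bars, and on 5 libraries scaled to 10 CM markers (triangles, no error drawn). Bin1 stood at 1.42 and 2.59, the values of Jph2 and Ryr2 were -0.62 and -0.51 in 5 libraries, and scaling to CM markers put Ryr2 at -0.04.

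The markers of the sorted cell type were lower in SRF-OE as a sum, but not each of them separated the groups. All 10 CM markers, among them Myh6, Tnnt2 and Actn2, had a negative log2 fold change. Over all genes tested, 6420 of 13754 did in 5 libraries and 6270 of 13397 in 4. The median of the markers was -0.43 in 5 libraries and -0.55 in 4, and 0 of them passed the adjusted threshold in either fit. Myl2 was highest in SRF-OE replicate 2, at 6232 CPM. The 10 CM markers summed to 104200 and 91930 CPM in SRF-OE, 107700 CPM in the library labelled GFP1, and 140000 and 159300 CPM in GFP replicates 2 and 3. This is the library order of Jph2, Cacna1c and Ryr2. In bulk samples, fewer cells of a type and less RNA per cell cannot be told apart. No marker of the other cell types except 1 leukocyte gene in GFP replicate 2 was at 0. The 12 endothelial markers summed to 1033 and 401 CPM in SRF-OE and to 783, 436 and 437 CPM in GFP, and all 12 had a positive log2 fold change in 5 libraries (median 0.42). In 4 libraries 11 of the endothelial markers did (median 0.81), and Vwf was at -0.15. The 11 fibroblast markers summed to 1120 and 591 CPM in SRF-OE and to 625, 469 and 424 CPM in GFP, and all 11 had a positive value (median 0.79). At an unadjusted p under 0.05 (edgeR, 5 libraries), 6 fibroblast, 3 smooth muscle and 0 endothelial markers were higher, where 6.35% of all genes were. The 10 smooth muscle markers summed to 786 and 716 CPM in SRF-OE and to 745, 508 and 659 CPM in GFP, and 9 of them had a positive value (median 0.63). In 4 libraries 2 fibroblast and 2 smooth muscle markers were called higher, where 1.98% of all genes were. Bin1, like the fibroblast and smooth muscle sums, was higher in either SRF-OE library than in GFP replicates 2 and 3, as were 30.8% of all genes. Bin1 was highest in SRF-OE replicate 3, and both sums were highest in SRF-OE replicate 2. The largest part of the smooth muscle sum was Smtn, at 372 and 247 CPM in SRF-OE, the 1 marker of that list with a negative value. Myh11, Cnn1, Tagln, Cnn2 and Cspg4 were highest in SRF-OE replicate 3, as was the fibroblast marker Ddr2. The other smooth muscle and fibroblast markers were not. The 10 leukocyte markers summed to 14.1 to 42.4 CPM over the 5 libraries, and 6 of the 9 tested had a positive value. The part of these markers in the values of the 9 genes was not tested.

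Set against the CM markers, Ryr2 and Jph2 differed less between the libraries than in CPM. These markers are not a neutral reference. The study names Myh6 a direct target of SRF and reports that SRF overexpression lowered myofibril genes, to which most of the markers belong. Per 1000 counts of the 10 CM markers, Ryr2 had 11.3 and 11.3 counts in SRF-OE and 11.7, 10.6 and 12.4 in GFP. Jph2 had 2.96 and 2.98 against 3.08, 3.03 and 3.67 on the same scale. Ryr2 overlapped between the groups on this scale, although for Jph2 each SRF-OE library was still below each GFP library. Cav3 had 1.92 and 2.23 counts per 1000 in SRF-OE and 1.91, 1.37 and 1.24 in GFP, with the SRF-OE libraries highest. Trdn, at 4.41 and 4.83 against 4.53, 3.02 and 3.12, overlapped only through the library labelled GFP1. With libraries scaled to these markers, the log2 fold change in 5 libraries was -0.13 for Jph2, -0.04 for Ryr2 and Mtm1, 0.09 for Cacna1c, 0.17 for Cacnb2, 0.38 for Trdn, 0.44 for Dysf, 0.46 for Cav3 and 1.73 for Bin1, and 0 of the 9 were called. In 4 libraries this scaling called 4 of the 9 higher, Bin1, Cav3, Dysf and Trdn, where it called 42.6% of all genes higher. It also moved the median of all genes from 0.03 to 0.46 in 5 libraries and to 0.64 in 4. Relative to that moved median, the 5-library values were -0.60 for Jph2, -0.50 for Ryr2, -0.08 for Trdn and 0.00 for Cav3. The direction given for Cacna1c, Cacnb2 and Trdn therefore holds for scaling to all genes and turns under scaling to CM markers, in 5 libraries and in 4, and that of Mtm1 turns in 4 (0.15).

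Compared per length, as RPKM (CPM divided by the gene length in kb, with the lengths of the deposited table), the 9 genes kept a wide order of levels. Cav3 was highest at 173 ± 4.93 RPKM (SD over the 5 libraries), followed by Trdn at 102 ± 6.84, Jph2 at 90.4 ± 29.3 and Ryr2 at 82.5 ± 21.6 RPKM. The ranges of these last 3 genes overlapped over the libraries, but within a library Jph2 was above Ryr2 in 5 of 5 and Trdn above Jph2 in 3 of 5. Cacnb2 at 31.2 ± 4.65, Dysf at 26.3 ± 2.94 and Cacna1c at 19.3 ± 3.91 RPKM formed a lower tier, in which each overlapped its neighbour. Mtm1 at 9.14 ± 1.59 RPKM and Bin1 at 2.54 ± 1.95 RPKM were lowest. With these lengths, Mtm1 did not overlap Cacna1c or Bin1 in any library. The order depends on the deposited lengths, which equal the summed annotated exons for Cav3 and Jph2 and are shorter for the other 7, from Dysf (7056 against 8328 bp) to Mtm1 (3871 against 13935 bp). With the summed exons as length, Trdn would be at 49.4 and Ryr2 at 48.2 RPKM, both below Jph2. Cacnb2 at 10.5 RPKM would be below Dysf at 22.3 RPKM, and Cacna1c would be at 8.24 RPKM. Mtm1 would be at 2.54 ± 0.44 and Bin1 at 1.52 ± 1.16 RPKM (SD over the 5 libraries), and their ranges would overlap.

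**Figure D3:**
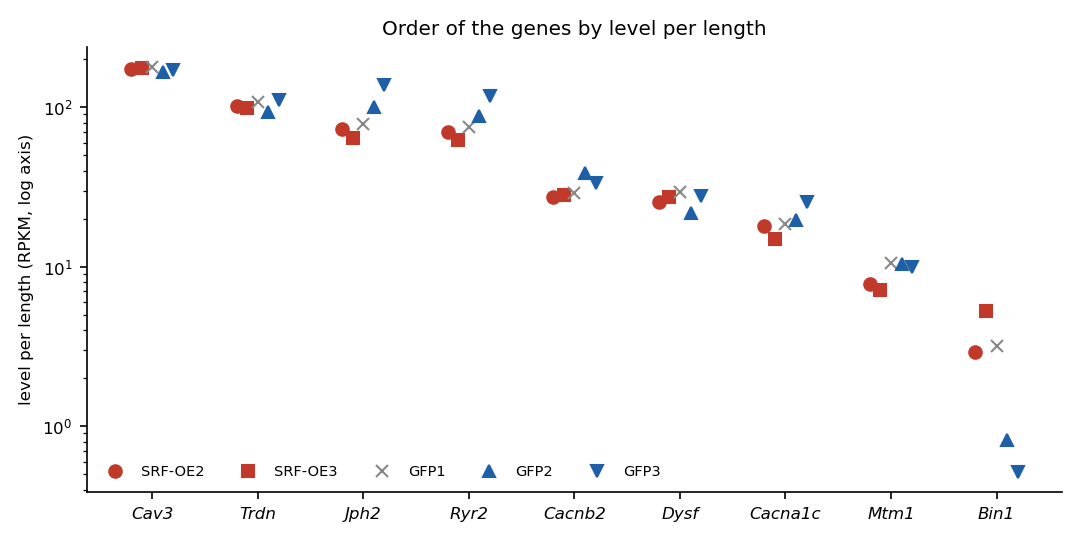
Level per length of the 9 genes (RPKM, log axis), ordered by their mean, with each library as a symbol: SRF-OE in red, the library labelled GFP1 as a grey cross, and GFP replicates 2 and 3 in blue. Cav3 lay between 166 and 178 RPKM in every library, and Bin1 spanned 0.515 to 5.29 RPKM.

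Shares of the reads per length within a gene family do not depend on library scaling. Ryr2 made up 99.4% to 99.8% of the 3 ryanodine receptors, Cacna1c 94.9% to 97.8% of the L-type pores Cacna1c, Cacna1d and Cacna1s, and Jph2 94.8% to 96.7% of the 4 junctophilins. The shares of Jph2 overlapped between the groups through the library labelled GFP1 (95.4%), and without it those of SRF-OE, 95.8% and 94.8%, lay below the 96.3% and 96.7% of GFP. Cacnb2 took 86.2% and 78.6% of the β subunits in SRF-OE and 82.5%, 90.8% and 89.9% in GFP. The other main β subunit, Cacnb1, known from skeletal muscle, took 10.4% and 18.1% against 14.4%, 7.65% and 8.06%, and the groups separated only without the library labelled GFP1. Dysf took 97.3% and 96.0% against 98.6%, 98.9% and 98.5% of the reads per length of Dysf and myoferlin (Myof). Both SRF-OE libraries were lower, and Myof had 0.709 and 1.15 RPKM there against 0.409, 0.252 and 0.412 RPKM. Mtm1 took 28.6% and 25.6% of Mtm1, Mtmr1 and Mtmr2 in SRF-OE and 30.8%, 33.3% and 34.1% in GFP, without overlap. Trdn, set beside Asph, which encodes junctin among other proteins, took 80.0% and 80.5% against 80.1%, 72.6% and 75.6%. Bin1 took 91.4% and 98.2% of Bin1 and Amph in SRF-OE and 91.5%, 83.9% and 49.8% in GFP, where Amph had 7 to 21 counts a library. Cav3 took 54.8% and 74.3% of the caveolins in SRF-OE and 60.1%, 74.9% and 79.0% in GFP. Cav3 itself stayed between 166 and 178 RPKM, so its share necessarily followed the level of the other caveolins. Cav1, which endothelial cells also express, was highest at 123 RPKM in SRF-OE replicate 2 and 95.4 RPKM in the library labelled GFP1. These were also the libraries with the highest endothelial sums, and a link was not tested. An exact permutation test of 2 against 3 libraries cannot go below p = 0.1, and 2 against 2 not below 0.33, so no test of these shares is given.

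Partner genes of the same structures were taken from 4 lists by role, 67 in all, of which 66 were tested in 5 libraries and 65 in 4. In 5 libraries 0 were called, and 8 were higher and 7 lower at an unadjusted p under 0.05, where 6.35% and 7.59% of all genes were. In 4 libraries 5 rose and 2 fell (edgeR, adjusted p under 0.05), where 1.98% of all genes were called higher and 0.97% lower. The median log2 fold change in 5 libraries was 0.00 for the 25 membrane and repair partners, -0.08 for the 10 tested junctional membrane partners, 0.24 for the 16 channel partners and -0.21 for the 15 release partners, beside 0.03 for all genes.

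Of the membrane and repair partners, 2 of 25 rose in 4 libraries (1.98% of all genes did), and both encode annexins, calcium-dependent membrane binders with a part in repair. Anxa2 was at 87.6 and 90.6 CPM in SRF-OE and at 82.8, 41.3 and 37.9 CPM in GFP, with a log2 fold change of 0.72 ± 0.34 (SE, edgeR adjusted p = 0.38) in 5 libraries and 1.18 ± 0.13 (adjusted p = 0.042) in 4. Anxa5 was at 198 and 252 CPM against 182, 118 and 114 CPM, with 0.71 ± 0.23 in 5 libraries and 0.96 ± 0.15 (adjusted p = 0.047) in 4. For both, all SRF-OE libraries were above all GFP libraries, as for 16.1% of all genes, and the library labelled GFP1 was the highest of the GFP group. Trim72 (MG53), a muscle protein that seals membrane lesions, had the lowest value of this list, with 24.6 and 15.2 CPM against 37.9, 45.6 and 60.6 CPM, a log2 fold change of -1.27 ± 0.28 (adjusted p = 0.35) in 5 libraries and -1.41 ± 0.27 (adjusted p = 0.053) in 4. Cavin1, the coat protein of caveolae, was the highest of the well-measured genes in 5 libraries, at 0.80 ± 0.37. In 4 libraries Cavin1 was at 1.215 ± 0.26 (edgeR adjusted p = 0.062). Tcap, the Z-disc protein telethonin that links sarcomere to tubule, ranged from 803 to 1243 CPM. Its log2 fold change was -0.14 ± 0.22 in 5 libraries, where that of Popdc2, a cAMP-binding membrane protein, was -0.47 ± 0.25. Both were short of the threshold.

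Of the junctional partners, Sypl2 (mitsugumin 29), a protein of skeletal muscle triads, rose in 4 libraries. Sypl2 was at 30.8 and 136 CPM in SRF-OE, 83.6 CPM in the library labelled GFP1, and 0.963 and 0.553 CPM in GFP replicates 2 and 3, where it had 21 and 7 counts. The log2 fold change was 6.71 ± 0.89 (SE, edgeR adjusted p = 0.047) in 4 libraries and 1.55 ± 1.70 (adjusted p = 0.68) in 5, in which the groups overlapped. The junctional partners with the highest level per length were Srl (sarcalumenin, an SR calcium-binding protein), at a log2 fold change of -0.29 ± 0.18 in 5 libraries, and Tmem38a (the TRIC-A cation channel of the SR), at -0.17 ± 0.16. Jph1, the junctophilin of skeletal muscle, was at 13.1 and 13.1 CPM against 17.3, 18.2 and 21.8 CPM, a log2 fold change of -0.54 ± 0.17 (adjusted p = 0.35) in 5 libraries.

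Of the 16 channel partners, 1 rose and 2 fell in 4 libraries, beside 1.98% and 0.97% of all genes. Cacna2d1, the α2δ subunit that raises the surface density of the channel, was at 73.3 and 67.3 CPM in SRF-OE and at 89.8, 115 and 131 CPM in GFP, with -0.67 ± 0.18 (SE, edgeR adjusted p = 0.35) in 5 libraries and -0.80 ± 0.13 (adjusted p = 0.047) in 4. Rrad, a small GTPase that restrains the L-type channel, was at 389 and 349 CPM against 422, 674 and 757 CPM, with -0.74 ± 0.26 in 5 libraries and -0.95 ± 0.14 (adjusted p = 0.047) in 4. Ahnak, a large scaffold that binds the β subunit, was at 254 and 248 CPM against 195, 151 and 142 CPM, with 0.63 ± 0.16 in 5 libraries and 0.78 ± 0.11 (adjusted p = 0.047) in 4. None of these 3 genes overlapped between the groups, with or without the library labelled GFP1. Of all genes, 17.3% separated downward and 16.1% upward in 5 libraries, and 30.2% and 30.8% in 4. The 3 genes were named because they were called in 4 libraries, so their separation there adds no evidence. Gem, a GTPase of the same family as Rrad, gave the opposite sign at 1.37 ± 0.55 (edgeR adjusted p = 0.36) in 5 libraries and 1.82 ± 0.56 (adjusted p = 0.10) in 4. The difference between Gem and Rrad was not tested.

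Of the release partners, Casq1, the calsequestrin of fast skeletal muscle, rose in 4 libraries. Casq1 was at 1072 and 3217 CPM in SRF-OE, 2121 CPM in the library labelled GFP1, and 49.1 and 92.0 CPM in GFP replicates 2 and 3, a log2 fold change of 4.94 ± 0.64 (SE, edgeR adjusted p = 0.045) in 4 libraries and 1.51 ± 1.46 (adjusted p = 0.63) in 5. Its cardiac relative Casq2, the main calcium store of the cardiac SR, ranged from 1726 to 2339 CPM, at -0.23 ± 0.18 in 5 libraries and -0.26 ± 0.18 in 4. Hrc, a histidine-rich calcium-binding protein that associates with triadin, was at 179 and 101 CPM against 207, 295 and 311 CPM, a log2 fold change of -0.95 ± 0.29 (adjusted p = 0.35) in 5 libraries and -1.11 ± 0.26 (adjusted p = 0.068) in 4. S100a1, a calcium sensor that binds the ryanodine receptor, was at -0.41 ± 0.17 in 5 libraries.

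**Figure D4:**
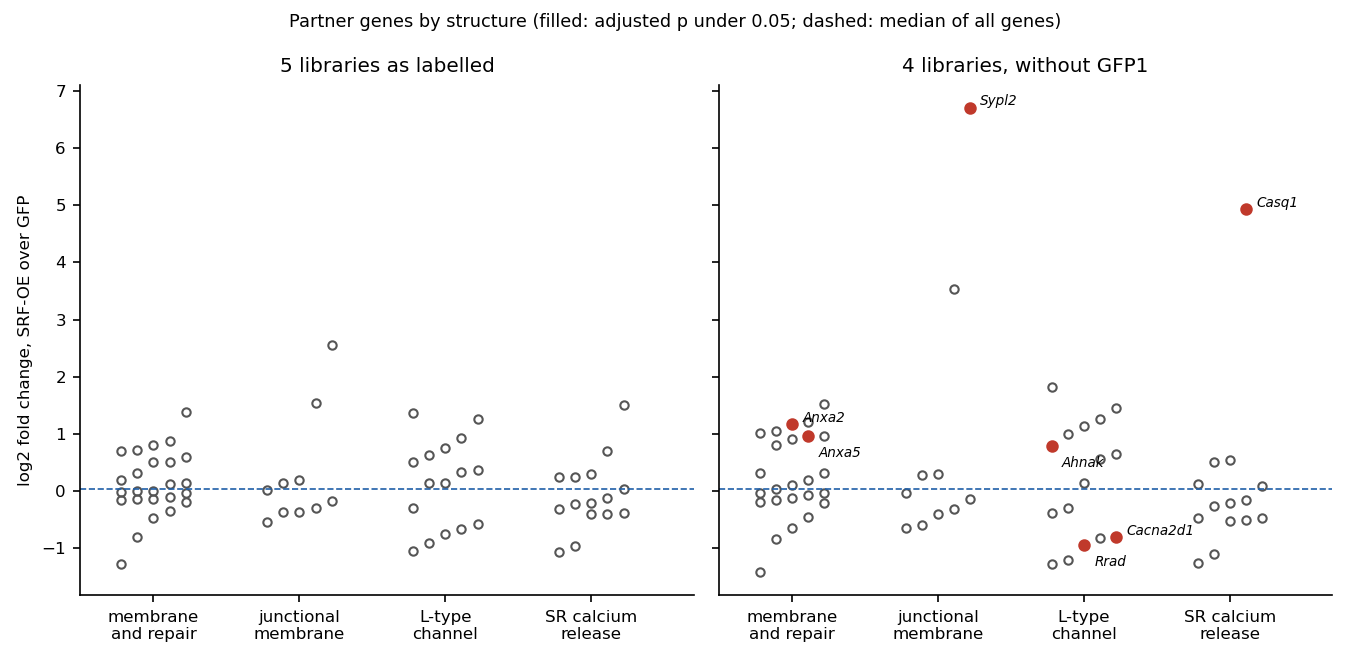
Log2 fold change of SRF-OE over GFP (vertical axis) for each tested partner gene, grouped by structure, in 5 libraries (left) and without the library labelled GFP1 (right), with the horizontal offset only separating points. Filled points passed an adjusted p of 0.05 (0 of 66 at left, 7 of 65 at right, named) and the dashed line is the median of all genes tested, 0.03 and 0.04.

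The patterns most like those of the 9 genes across the 5 libraries were found among 8515 genes with a mean of at least 10 CPM, as the smallest root mean square difference of centred log2(CPM + 0.5). The nearest gene to Ryr2 was Myom1, which encodes the M-band protein myomesin, at a difference of 0.032. Jph2 was nearest to Ggcx and, at the same 0.055 to 3 decimals, to Myo18b, a muscle myosin. For Cacna1c the nearest was Rps6ka2 (0.022), followed by the CM marker Tnnt2 (0.047). Bin1 had the loosest match, Npr3 (0.098), which was at 13.4 and 26.3 CPM in SRF-OE and at 15.1, 3.90 and 3.24 CPM in GFP. The nearest genes to the flat Cav3 and Trdn were Rps4x (0.019) and Edf1 (0.018), to Dysf Uaca (0.027), to Mtm1 Mcm5 (0.044) and to Cacnb2 H6pd (0.017). With 5 libraries, many genes share any given order, and these are descriptions only.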

How the data were processed

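RNA-seq of FACS-sorted GFP+ CMs was analysed for SRF-OE and GFP. The authors amplified total RNA with SMART-Seq v4, made Nextera XT libraries, aligned reads to mm10 with STAR 2.5.3a and counted reads per gene with featureCounts (Subread 1.5.2 in the submitters' processing notes). The deposited values are raw counts per gene that the authors had not normalized. The strand setting is not given in the sources used here, so the reads of overlapping genes on opposite strands (for Bin1, Dysf and Cacnb2) cannot be told apart. The amplified reads carry no molecular identifiers, and intervals cover counting error only.

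The column that the header gives to SRF-OE replicate 1 holds no 0, and for 73.8% of 20932 genes it lies within 5% of an annotated exon length or transcript, so it was used as gene length alone. The tests were designed for up to 6 libraries and used the 5 with counts. Libraries were assigned by column heading, and 0 columns of values were left unused. No pair of libraries within a group was identical or agreed within sampling noise, and libraries of different groups were not compared in this way.

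Counts were tested with edgeR 4.0.16 in R 4.3.3 (filterByExpr, TMM, glmQLFit, glmQLFTest), with Benjamini-Hochberg adjustment over all genes tested and a cutoff of 0.05. CPM uses the TMM factors of the 5 libraries, and RPKM is CPM per 1000 bp. The scripts were tested on simulated data. Alternatives were DESeq2 1.42.0, edgeR with the size factors of DESeq2 or with upper quartile scaling, no filter, at least 10 counts in every library, a replicate block and leaving out each library. Scaling to the 10 CM markers and a length from the summed annotated exons were added after the data were seen. The 9 genes, the partner lists and the marker lists were chosen with earlier results of these data known. Besides the 9 genes, the text names from each partner list the 2 highest levels per length, the largest and smallest log2 fold change at a mean of at least 10 CPM, and every gene called. Cavin1, Cavin4 and Adgre1 were matched by older symbols. Positions are from GENCODE (GRCm38) and promoters from RefSeq.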

Additional observations from a re-analysis of the deposited data

How the results depend on the processing

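Depth limited chiefly Bin1 (16 to 297 counts a library), and the spread within SRF-OE rests on 2 libraries. Of the 9 genes, 0 were called in 5 libraries by edgeR, DESeq2, either other scaling or either other filter, where DESeq2 gave an adjusted p to 7 of the 9 and none to Bin1 or Mtm1, and leaving out 1 library gave 0 to 1, with 1 (Bin1) only without GFP replicate 1. The lone SRF-OE library left when the other is omitted is assumed to vary like the GFP libraries. In the 4 libraries without GFP replicate 1, edgeR called 1 of the 9 with DESeq2's size factors, 4 without a filter (Bin1, Jph2, Ryr2, Cacna1c), DESeq2 called 3 (Bin1, Jph2, Ryr2), and scaling to CM markers called 4. Partner genes called were 0 in 5 libraries, 4 by DESeq2, which gave an adjusted p to 28 of them, 0 to 7 when leaving out 1 library, and 34 in 4 libraries scaled to CM markers. Omitting a library put Bin1 (log2) at 0.91 to 2.59, with -0.79 to -0.38 for Jph2, -0.64 to -0.31 for Ryr2, -0.51 to -0.21 for Cacna1c and -0.37 to -0.18 for Cacnb2. Dysf ranged from -0.11 to 0.10 and turned negative without SRF-OE replicate 3 (-0.05) or GFP replicate 2. Scaling to CM markers turned Cacna1c to 0.088, Cacnb2 to 0.17 and Trdn to 0.38. Over all genes, DESeq2 called 224 in 5 libraries and 1685 in 4, edgeR 536 in 4 with DESeq2's size factors, 2963 without a filter and 5790 scaled to CM markers, beside 0 and 395. Apart from what the settings themselves change, the cause was not tested.

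The replicate numbers 2 and 3 occur in both groups, without a statement of what a number marks. Xist was high in replicate 2 of both groups and not in replicate 3, so in 4 libraries a block by number also divides the libraries by sex. A fit with a replicate block called 1 of the 9 genes (Bin1, log2 fold change 2.51, adjusted p = 0.027), 15 partner genes and 1014 genes in all in 5 libraries, in which GFP replicate 1 is a block of its own and adds nothing to the contrast, and 1 of the 9 and 939 genes in all in 4 libraries. Deviations of same-numbered libraries correlated across genes at 0.37 and -0.06 in 5 libraries and at 0.20 in 4, where the pairs mirror each other, so the numbers were not treated as pairs.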
